A study of Drosophila melanogaster with 20 samples.

Results

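The genes described here make and run the endoplasmic reticulum (ER) and the vesicles that leave it, in Drosophila melanogaster wings and salivary glands. They were chosen by name, as 45 listed symbols matched without regard to case in the deposited expression matrix. All 45 were found among the 17520 genes whose reads could be recovered, and all 45 passed the filter on low values that left 10159 genes for testing. By role they are 9 chaperones and folding enzymes, 3 stress sensors with the transcription factor Xbp1, 10 genes of translocation, signal peptide cleavage and glycosylation, 6 of the COPII coat, 7 of the COPI coat, and 9 cargo receptors, retrieval and fusion genes.

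RNA was sequenced from wings and salivary glands of animals labelled female, in 20 libraries that form 10 groups of 2. Wild-type (WT, labelled +/+) tissue was taken at -30, -6 and +6 hours from puparium formation, that is from larvae 72 h after transfer, from wandering larvae and from animals staged as white prepupae. EcRi tissue was yw and carried Vg-GAL4, with UAS-Flp and the Tub>>CD2>>GAL4 cassette, UAS-GFP and UAS-EcR-RNAi[104], and was taken at -30 and -6 h. EcR encodes the ecdysone receptor subunit that the hairpin targets, and the driver cassette is one that the vestigial enhancer (Vg) opens through the recombinase Flp, so EcRi differs from WT by the driver, GFP, hairpin and line. All animals were raised at 25 degrees C, and each library pooled at least 60 dissected organs. Nothing in the labels ties the 2 libraries of a group to different animals, so p-values measure only the spread between libraries, which may be technical.

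Proteins bound for secretion enter the ER through the Sec61 channel, lose their signal peptide, receive N-linked sugars and fold with the help of lumenal chaperones. COPII-coated vesicles then carry them to the Golgi, and COPI-coated vesicles bring escaped ER proteins back. When unfolded proteins build up, the sensors Ire1, PEK and Atf6 start the unfolded protein response, in which Ire1 splices the Xbp1 mRNA. The larval salivary gland makes glue proteins in bulk and releases them around puparium formation, whereas the wing is an epithelium that lays down cuticle and extracellular matrix.

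Libraries held 14949900 to 22626725 reads, and every member had at least 97 reads in every library except Ero1L, which is listed at 0 in replicate 2 of the WT gland at -30 h. That library showed 6340 genes with a read, against 9397 to 11460 in the other 19, and its replicates differed by a median of 0.653 on the log2 scale over all genes and 0.357 over the members. Changes of named genes that rest on it under the main scaling are given with and without it. Wing markers summed to 1512 to 1979 scaled RPM in wing libraries and 168.9 to 246.9 in gland libraries. Salivary gland markers, which include 2 glue genes, summed to 1880561.3 and 2709126.9 in the WT gland at -6 h. The white gene (w), carried by many fly transgenes, lay at 310 to 666 in EcRi libraries and at most at 23 in WT ones.

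Levels are scaled RPM, that is RPM (the reads of a gene as a share of the library's reads) after TMM scaling, a factor that lines up most genes between libraries. Changes are log2 fold changes ± standard error on the log2(scaled RPM + 1) scale. A gene is said to have risen or fallen where limma gave a Benjamini-Hochberg adjusted p under 0.05 over all genes tested and at least a 2-fold change. Shares of all genes are given at these limits. Counts at looser limits, an unadjusted p or an adjusted p without a fold minimum, were made for members only and do not set them apart from other genes. In the WT gland at -6 h, 65.1% and 72.6% of reads fell on glue genes. In the other gland groups at most 6.81% did, so the choice of scaling matters for glands. Glue genes are here Pig1, the Sgs genes, and ng1 to ng4. The Eig71E cluster is left out of glue shares and enters only where it is named. Of 4 scalings tried, 1 (to reads outside the glue and Eig71E genes, chosen after the data were seen) put the median change of all genes as far as 1.16 from 0 on the log2 scale, and changes of the whole list are therefore also given relative to that median.

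**Figure D1:**
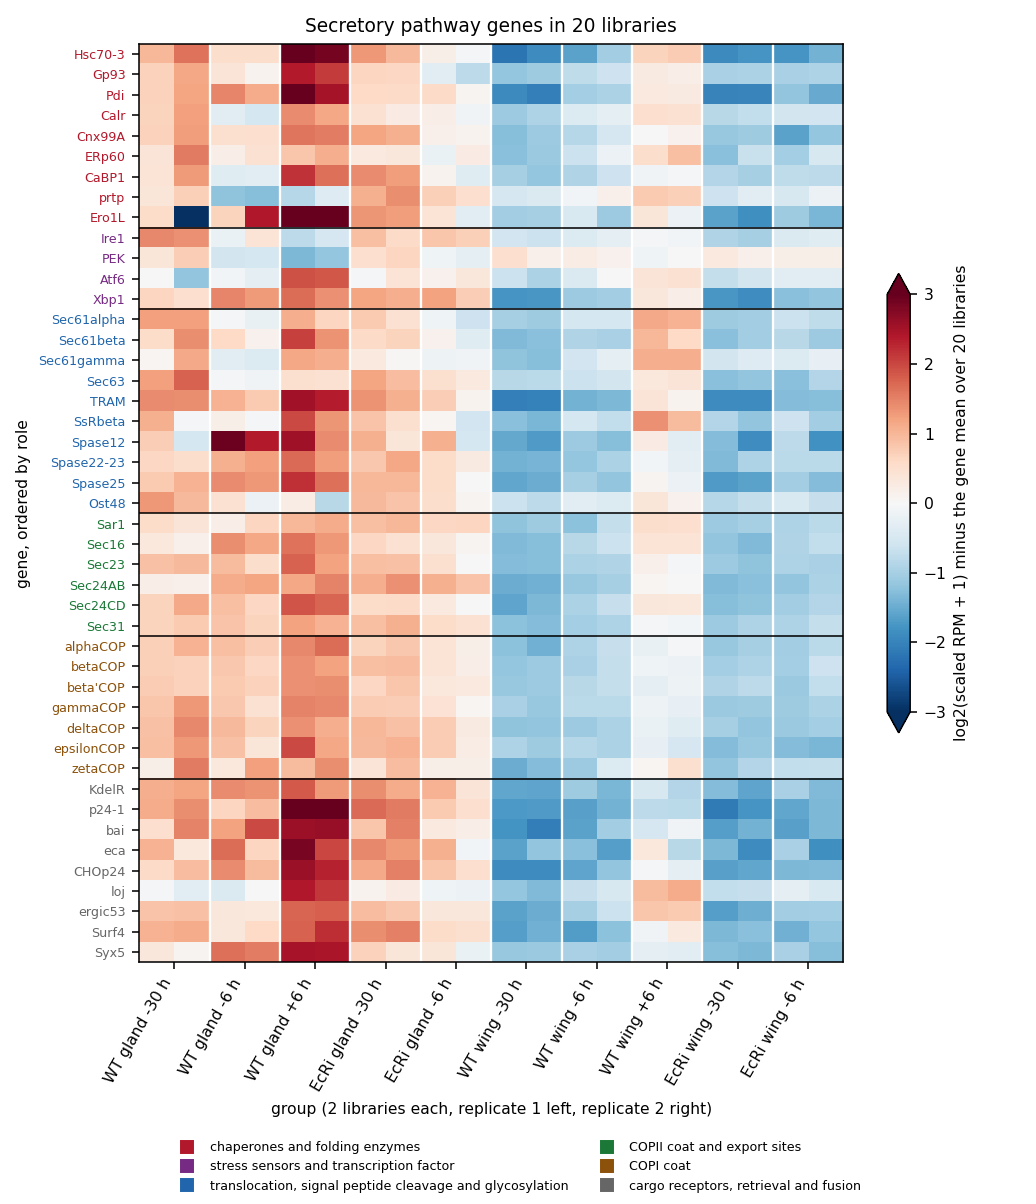
Level of each of the 45 members (rows, ordered by role) in each of 20 libraries (columns, 2 per group) as log2(scaled RPM + 1) minus the gene's own mean over the 20 libraries, red for higher and blue for lower. The WT gland at +6 h is the reddest pair of columns for most rows, the wings at -30 h are among the bluest, and Ero1L in replicate 2 of the WT gland at -30 h, listed at 0, is the single dark blue cell in the gland block.

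In both WT tissues the called members all rose at the larval to prepupal step, and most members stood higher in the gland than in the wing. From -6 to +6 h, 18 of 45 members rose and 0 fell in the WT gland, where 30.0% of all genes tested were called in either direction and 13.7% of all genes rose. In the WT wing over the same hours 19 rose and 0 fell, against 16.7% of all genes called. The median change of a member was 0.87 in the gland and 0.98 in the wing, against -0.08 and 0 for all genes tested. Relative to the median of all genes it lay at 0.63 to 1.08 in the gland and 0.79 to 1.02 in the wing over the 4 scalings. With the scaling to reads outside the glue and Eig71E genes, 7 members rose and 3 fell in the gland, and 9 rose and 0 fell in the wing. Of all genes tested, 757 rose and 2410 fell in the gland under that scaling, and 781 rose and 1524 fell in the wing. The 7 members were Hsc70-3, Gp93, Calr, CaBP1, Atf6, p24-1 and loj, and the 9 were Hsc70-3, the 3 Sec61 subunits, TRAM, SsRbeta, loj, ergic53 and Surf4. In the authors' deposited tables of these comparisons, 23 members rose and 0 fell in the gland and 17 rose and 0 fell in the wing by the same limits. Markers of other tissues moved in WT glands over these hours, with fat body sums of 7453 and 8181.5 scaled RPM at -6 h and 2472.7 and 2765.9 at +6 h and trachea sums of 86.15 and 86.65 and then 164.6 and 203.4, all 8 and all 5 of these markers being read. Their part in the changes was not tested.

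The earlier larval interval gave another picture. From -30 to -6 h the WT gland moved both ways, with 4 members higher and 8 lower against 34.8% of all genes called, and a median member of -0.19. The balance was not stable, since the authors' deposited table held 5 higher and 5 lower with a median of 0.06, and the median-of-ratios scaling gave 6 higher and 5 lower with a median of 0.05. Without replicate 2 of the WT gland at -30 h the counts were 3 higher and 7 lower, and under the scaling to reads outside the glue and Eig71E genes 2 higher and 22 lower. Of all genes tested, 1037 were higher and 2642 lower under that scaling. Blood cell markers in WT glands summed to 406.6 and 641.3 at -30 h and 48.73 and 84.01 at -6 h, with 3 and 7 of 8 read in both libraries, and trachea markers to 380.8 and 514.1 and then 86.15 and 86.65, with 4 and 5 of 5 read in both libraries. In WT wings fat body markers summed to 202.2 and 2636.1 at -30 h and 32.56 and 45.99 at -6 h, all 8 being read, and for none of these lists was the part in the changes tested. In the WT wing 0 members were called against 5.31% of all genes, although 43 of 45 had a positive change, 21 were higher and 0 lower at an unadjusted p under 0.05, and 8 passed the adjusted p without a fold minimum. The shares of all genes at these looser limits were not computed. The authors' deposited table for this wing interval also held 0 members past both limits and 10 higher ones past the adjusted p alone. The median change of a wing member was 0.43, against 0 for all genes.

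Between -6 and +6 h, 12 members rose in both tissues, which is 66.67% of the 18 called in the gland and 63.16% of the 19 called in the wing, and the comparisons share no library. Of all genes tested, 423 rose in both, which is 30.4% of the 1390 that rose in the gland and 39.3% of the 1075 that rose in the wing. The 12 members were Hsc70-3, Pdi, Sec61alpha, Sec61beta, Sec61gamma, TRAM, SsRbeta, Sec24CD, CHOp24, loj, ergic53 and Surf4. Those called in the gland alone were Gp93, Calr, Cnx99A, CaBP1, Atf6 and p24-1, and those called in the wing alone were ERp60, Xbp1, Spase25, Sar1, Sec16, Sec24AB and bai. A test of the difference between the tissues called 6 of the 45 against 27.0% of all genes, with the wing change above the gland change for Xbp1 and Ire1 and below it for Gp93, CaBP1, Atf6 and p24-1.

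**Figure D2:**
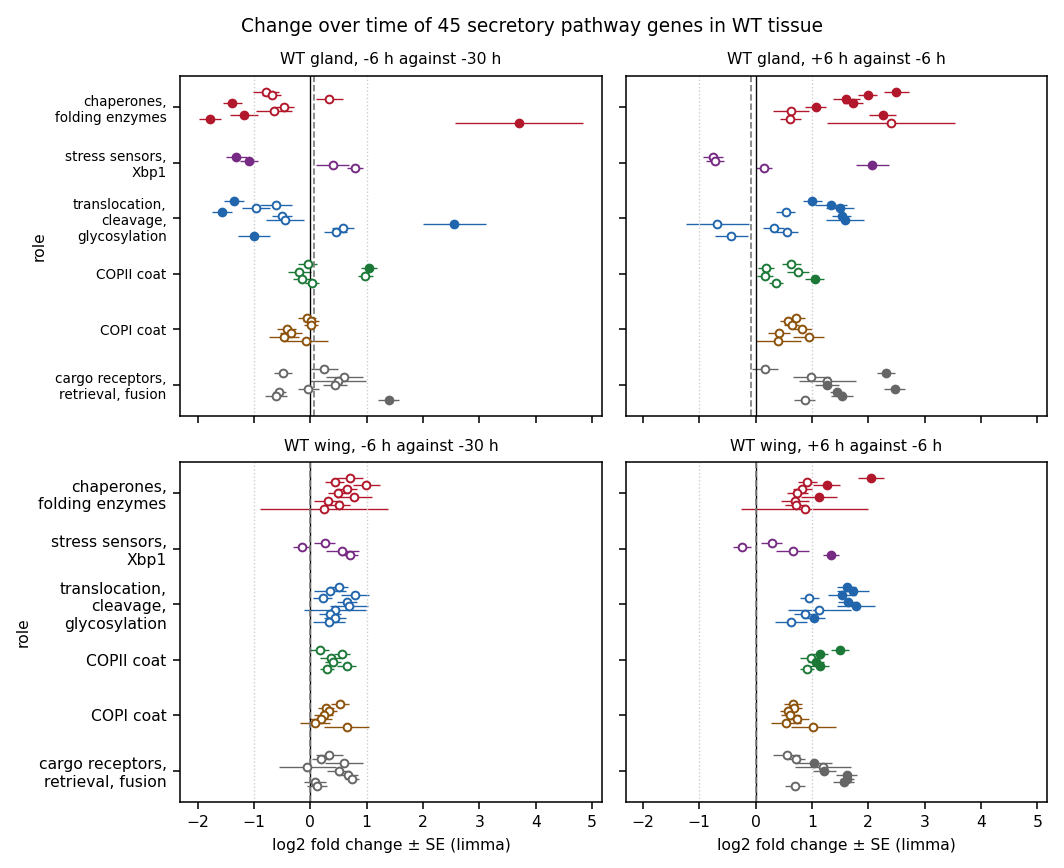
Log2 fold change ± standard error (limma) of each member in the 4 WT time comparisons, by role. Filled points passed an adjusted p of 0.05 and a 2-fold change, open points did not, the dashed line is the median of all genes tested and dotted lines mark 2-fold. In both panels for -6 to +6 h most points lie to the right of 0, with the COPI coat all open.

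Counted as a share of reads, the 45 genes took 2.73% and 3.35% of the WT gland libraries at -30 h. At -6 h they took 0.568% and 0.406%, and at +6 h 2.55% and 2.14%. Of reads outside the glue genes, the share was 2.93% and 3.53%, then 1.63% and 1.48%, then 2.56% and 2.16%. In WT wings it went, with no overlap of libraries, from 0.913% and 0.993% of reads to 1.195% and 1.34%, and then to 2.15% and 2.13%. EcRi wings held 0.984% and 1.03% at -30 h and 1.09% and 1.08% at -6 h, so the WT wings at -6 h lay above both EcRi libraries of that time. Gland markers summed to 9844.8 and 7052.6 scaled RPM in those WT wings and to 135.6 and 113.9 in the EcRi wings. Their part in these shares was not tested.

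The make-up of this share does not depend on how libraries are scaled. Chaperones and folding enzymes gave 67.5% and 63.4% of the members' reads in the WT gland at +6 h, against 47.6% and 47.5% at -6 h and 49.4% and 58.4% at -30 h. In the wing their part was 53.3% and 56.3% at +6 h, 51.4% and 54.0% at -6 h, and 47.0% and 48.8% at -30 h. The COPI coat went the other way, from 7.24% and 7.11% to 3.70% and 4.55% in the gland and from 7.14% and 7.06% to 4.68% and 4.77% in the wing between -6 and +6 h. Both prepupal libraries of each tissue lay below both libraries of -6 h for this coat, but not for it alone. COPII went from 13.8% and 14.1% to 6.69% and 7.76% in the gland and from 11.9% and 12.1% to 11.3% and 11% in the wing. Stress sensors with Xbp1 went from 5.86% and 5.93% to 2.45% and 2.63% in the gland. Their wing part went from 5.46% and 4.97% to 4.25% and 4.03%. Translocation genes went from 15.3% and 13.9% to 11.1% and 11.1% in the gland, and overlapped in the wing. Cargo receptors overlapped in both tissues.

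**Figure D3:**
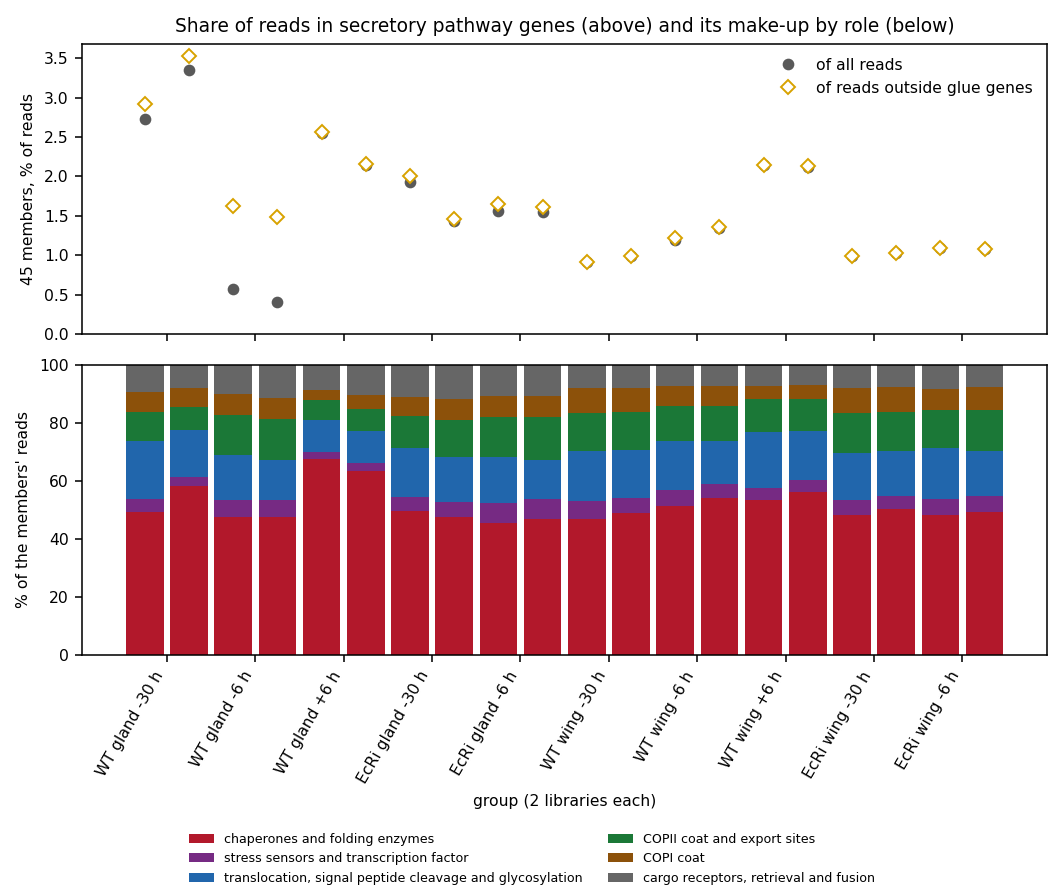
Above, the 45 members as a percentage of all reads (filled circles) and of reads outside glue genes (open diamonds) in each of 20 libraries. Below, the percentage of the members' own scaled reads that each role took in the same libraries; in the WT gland at +6 h the chaperones take 67.5% and 63.4%, the highest values of the 20.

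Against the gland, the wing held less of nearly every member. At -30 h, 0 members were higher and 42 lower in the wing, against 30.9% of all genes called. At -6 h 1 was higher and 30 lower, against 44.5%, and at +6 h 2 were higher and 31 lower, against 47.4%. The median differences of the members were -2.08, -1.55 and -1.49, against 0.14, 0.09 and 0.30 for all genes tested. Relative to all genes the medians ranged from -2.22 to -2.04 at -30 h, from -1.77 to -1.25 at -6 h and from -1.95 to -1.33 at +6 h over the 4 scalings. Under the scaling to reads outside the glue and Eig71E genes the counts became 0 higher and 35 lower at -30 h, 5 higher and 11 lower at -6 h, and 8 higher and 6 lower at +6 h. Of all genes tested, 3576 were higher and 708 lower at -30 h under that scaling. The numbers were 4717 higher and 1023 lower at -6 h, and 5245 higher and 775 lower at +6 h. In such bulk samples fewer cells of a type and less RNA per cell cannot be told apart. Gland markers also reached 9845 and 7053 scaled RPM in WT wings at -6 h, against 139.7 and 360.5 at -30 h, with all 8 markers read in both libraries at each time, and their part in the wing values was not tested.

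Among the chaperones, Hsc70-3 (FBgn0001218, chromosome X, 11801696 to 11807117 of dm6) is the Hsp70 family chaperone of the ER known as BiP. In WT glands it stood at 4223 and 6574 at -30 h, 3066 and 3025 at -6 h, and 19114 and 15483 at +6 h scaled RPM. In WT wings it stood at 463 and 575 at -30 h, 692 and 1019 at -6 h, and 3359 and 3586 at +6 h. Both +6 h libraries lay above all 4 earlier ones in each tissue, and every gland library lay above the wing libraries of its own time. The rise from -6 to +6 h was 2.498 ± 0.23 in the gland (adjusted p = 7.4e-07) and 2.05 ± 0.23 in the wing (adjusted p = 1.15e-05). Relative to alphaCOP, a COPI gene in the same libraries, Hsc70-3 went from ratios of 7.86 and 8.65 to 34.0 and 23.4 in the gland and from 6.39 and 7.91 to 19.0 and 18.0 in the wing.

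Gp93, the Hsp90 family chaperone of the ER, stood at 954 and 1327 at -30 h, 772 and 635 at -6 h, and 3070 and 2534 at +6 h in WT glands, in the same order as Hsc70-3. Its gland rise was 1.99 ± 0.17. WT wings held 265 and 282 at -30 h, 352 and 386 at -6 h, and 710.2 and 686 at +6 h, a change of 0.92 ± 0.17 that stayed under 2-fold although the +6 h libraries lay above the rest. The gland change exceeded the wing change, with a difference of -1.07 ± 0.24 for wing minus gland (adjusted p = 0.00342).

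Pdi, a protein disulfide isomerase, stood at 2740.1 and 3849.5 at -30 h, 4646 and 3627 at -6 h, and 16414 and 9515 at +6 h in WT glands and at 448 and 405 at -30 h, 831 and 865 at -6 h, and 2049 and 2031 at +6 h in WT wings. It rose by 1.61 ± 0.24 in the gland and 1.27 ± 0.24 in the wing between -6 and +6 h, and the gland replicates of +6 h were the most unequal. Per kilobase of exon, Pdi and Hsc70-3 led the members in the gland at all 3 WT times, with 5569 and 4820 scaled RPM per kilobase at +6 h, followed by Calr with 1376. In WT wings Calr led at -30 h with 276 and at -6 h with 436, and Hsc70-3 led at +6 h with 968 scaled RPM per kilobase, ahead of Pdi with 876. The ranges of Pdi and Hsc70-3 in the gland overlapped at -30 h and at +6 h. An annotated antisense RNA overlaps 21.5% of the exonic bases of Pdi.

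Calr, the lectin chaperone calreticulin, fell and then rose in the WT gland, from 1483 and 2206 to 738 and 649 and then 2509.5 and 2105 scaled RPM. It fell by 1.38 ± 0.17 from -30 to -6 h and rose by 1.73 ± 0.17 from -6 to +6 h, with no overlap of libraries at either step. The fall was 1.098 without replicate 2 of the WT gland at -30 h. In WT wings it went from 439 and 488 to 703 and 761 and 1318 and 1283, by steps of 0.66 ± 0.17 and 0.83 ± 0.17 that were under 2-fold. At -6 h the libraries of the tissues overlapped, with a wing minus gland difference of 0.08 ± 0.17 (adjusted p = 0.733).

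CaBP1, a protein disulfide isomerase family member, showed the same down and up course in WT glands, with 256 and 468 at -30 h, 151 and 154 at -6 h, and 872 and 614 at +6 h. It fell by 1.18 ± 0.24 and then rose by 2.26 ± 0.24. Without replicate 2 of the WT gland at -30 h the fall of CaBP1 was no longer called, with a change of -0.74. Wings held 96.98 and 86.7 at -30 h, 104 and 126 at -6 h, and 182 and 190.3 at +6 h, a change of 0.70 ± 0.24 at the last step, and the difference between the tissues was -1.56 ± 0.34 for wing minus gland (adjusted p = 0.00296).

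The fly gene prtp (pretaporter), which encodes an ER protein with thioredoxin domains, fell by 1.77 ± 0.19 in the WT gland between -30 and -6 h, from 86.2 and 111 to 28.4 and 27.2, and stood at 36.7 and 51.00 at +6 h, below both libraries of -30 h and with a change of 0.62 ± 0.19 from -6 h. In WT wings it held 46.97 and 49.2 at -30 h, 63.4 and 74.6 at -6 h, and 116 and 111 at +6 h. It was the only chaperone higher in the wing at -6 h, by 1.27 ± 0.19, and at +6 h, by 1.37 ± 0.19, and the call at +6 h was lost under the median-of-ratios scaling, with 0.96, and without replicate 1 of the WT gland at +6 h, with 0.83.

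Ero1L, the oxidase that restores disulfide isomerases, was read at 42.6 and 0 scaled RPM in the WT gland at -30 h, the second value being the listed 0. At -6 h it stood at 46.1 and 156 and at +6 h at 495 and 413, with the prepupal libraries above all 4 others. The fitted change from -30 to -6 h was 3.701 ± 1.13 (adjusted p = 0.0157), and without that library 0.98 (adjusted p = 0.156). From -6 to +6 h the change was 2.3995 ± 1.13 and was not called (adjusted p = 0.111). Wings held 13.6 and 13.9 at -30 h, 20.6 and 13.04 at -6 h, and 37.5 and 25.2 at +6 h.

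The remaining folding genes were Cnx99A, the membrane-bound lectin chaperone calnexin, and ERp60, another disulfide isomerase. Cnx99A rose by 1.07 ± 0.18 in the gland at the last step and had a change of 0.74 ± 0.18 in the wing. ERp60 rose by 1.12 ± 0.33 in the wing (adjusted p = 0.0203) and had a change of 0.63 ± 0.33 in the gland, and its wing change was 0.89 without replicate 1 of the WT wing at -6 h and 0.94 without replicate 2 at +6 h, below the 2-fold minimum. In all, 6 of 9 folding genes rose in the gland and 3 of 9 in the wing from -6 to +6 h, with medians of 1.73 and 0.87, where 13.7% of all genes rose in the gland and 10.6% in the wing.

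**Figure D4:**
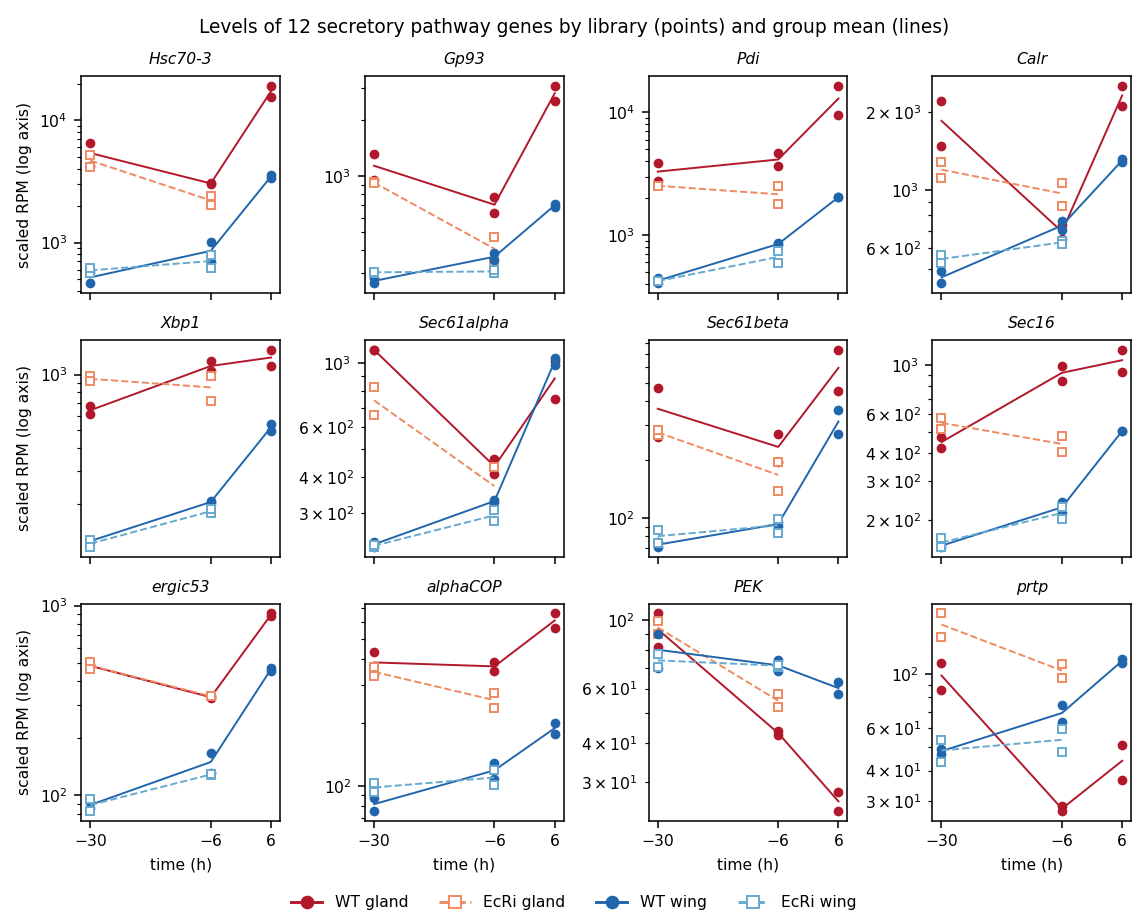
Scaled RPM (log axis) of 12 members against time in hours from puparium formation, with 1 point per library and lines through group means; red is gland, blue is wing, filled circles are WT and open squares EcRi. The +6 h points of Hsc70-3, Gp93, Pdi and ergic53 lie above all earlier WT points of the same tissue, those of PEK lie below them, and Xbp1 and Sec16 lie higher at -6 h than at -30 h in the WT gland.

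Among the stress sensors in the WT gland, Ire1 and PEK fell from -30 to -6 h, and Atf6 rose from -6 to +6 h. Ire1, a kinase and ribonuclease of the ER membrane, went in WT glands from 185 and 176 to 57.8 and 89.6 and 38.2 and 46.5 scaled RPM, and fell by 1.31 ± 0.18 at the first step. PEK, the kinase that phosphorylates eIF2alpha under ER stress, went from 81.6 and 105 to 42.5 and 43.6 and 24.1 and 27.7, and fell by 1.09 ± 0.16 at the first step. At the second step their log2 changes were -0.76 ± 0.18 and -0.71 ± 0.16, under 2-fold. In both genes each step took the gland libraries lower without overlap, while Hsc70-3 was at its highest at +6 h. The fall of PEK lay close to 2-fold and was lost in 10 of 29 other settings, with -0.91 without replicate 2 of the WT gland at -30 h. Without replicate 1 of the WT gland at -6 h the change was -0.89 for Ire1 and -0.96 for PEK, neither called.

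In WT wings no change of the 3 sensors was called. Ire1 held 44.6 and 42.4 at -30 h, 50.2 and 54.3 at -6 h, and 64.5 and 63.4 at +6 h, and PEK held 90.4 and 69.9 at -30 h, 74.2 and 68.5 at -6 h, and 57.6 and 62.9 at +6 h. The wing was higher than the gland for PEK at +6 h by 1.19 ± 0.16, a call lost with 0.79 and 0.86 under the median-of-ratios scaling and TMM without glue and Eig71E genes, and lower for Ire1 at -30 h by a difference of -2.02 ± 0.18. Atf6, a sensor that is released by cleavage in the Golgi, rose in the gland by 2.07 ± 0.30 between -6 and +6 h and had a change of 0.66 ± 0.30 in the wing, a difference of -1.41 ± 0.42 for wing minus gland (adjusted p = 0.0186). That difference was not called without replicate 2 of the WT wing at -6 h or replicate 1 at +6 h, with -1.199 and -1.37. Annotated transposable elements overlap 30.7% of the exonic bases of Atf6. For Ire1 the difference was 1.04 ± 0.26, and it was lost in 10 of 29 other settings.

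Xbp1 (FBgn0021872, chromosome 2R, 21143545 to 21145750), the bZIP factor whose mRNA Ire1 splices, rose in the wing at the prepupal step. WT glands held 673 and 609 at -30 h, 1177 and 1046 at -6 h, and 1362 and 1109.9 at +6 h, with a change of 0.79 ± 0.15 to -6 h that was under 2-fold and of 0.15 ± 0.15 afterwards. WT wings held 125 and 126 at -30 h, 202 and 207 at -6 h, and 542 and 494 at +6 h, and the rise to +6 h was 1.34 ± 0.15 (adjusted p = 1e-05). The wing change exceeded that of the gland by 1.19 ± 0.21 (adjusted p = 0.000488), but under the median-of-ratios scaling and TMM without glue and Eig71E genes this difference was 0.99 and 0.91 and was not called. The gene totals used here do not separate spliced from unspliced Xbp1.

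At the translocation channel all 3 Sec61 subunits rose in both tissues from -6 to +6 h. Sec61alpha, the pore subunit (FBgn0086357, chromosome 2L, 6477182 to 6480575), went in WT glands through 1114 and 1116 at -30 h, 464 and 409 at -6 h, and 1022 and 747 at +6 h scaled RPM. It fell by 1.35 ± 0.17 and then rose by 1.003 ± 0.17, so that its prepupal libraries lay below those of -30 h. In WT wings it went through 238 and 228 at -30 h, 332 and 328 at -6 h, and 1044 and 988 at +6 h. Its +6 h rise of 1.62 ± 0.17 left the libraries of the tissues overlapping, with a wing minus gland difference of 0.22 ± 0.17 (adjusted p = 0.297). The gland rise lay at the 2-fold limit. Relative to alphaCOP, the gland ratios of Sec61alpha overlapped, with 1.19 and 1.17 at -6 h and 1.82 and 1.13 at +6 h. In wings they went from 3.07 and 2.55 to 5.92 and 4.95.

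Sec61beta, a small tail-anchored subunit, held 263 and 469 at -30 h, 271 and 194 at -6 h, and 740.2 and 452 at +6 h in WT glands and 70.3 and 74.7 at -30 h, 94.6 and 90.8 at -6 h, and 359 and 269.5 at +6 h in WT wings. Its rises were 1.33 ± 0.28 and 1.74 ± 0.28. Sec61gamma, the other small subunit, held 59.5 and 126 at -30 h, 45.4 and 42.3 at -6 h, and 129 and 123 at +6 h in glands and 23.96 and 23.03 at -30 h, 37.6 and 46.00 at -6 h, and 122 and 122 at +6 h in wings, with rises of 1.5005 ± 0.25 and 1.53 ± 0.25. In both genes the prepupal wing libraries stood above all earlier wing libraries.

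Helpers of the channel followed. TRAM, a membrane protein beside nascent chains, held 1673 and 1632 at -30 h, 1284 and 1067 at -6 h, and 3552 and 3199 at +6 h in glands and 149 and 153 at -30 h, 231 and 243 at -6 h, and 817 and 674 at +6 h in wings, rising by 1.53 ± 0.17 and 1.64 ± 0.17. SsRbeta, a subunit of the translocon-associated protein complex, held 222 and 102 at -30 h, 119.5 and 101 at -6 h, and 416 and 266 at +6 h in glands and 43.6 and 40.4 at -30 h, 73.3 and 63.1 at -6 h, and 274 and 204 at +6 h in wings, rising by 1.59 ± 0.33 and 1.78 ± 0.33. Both genes were higher in the gland at -30 h, by differences of -3.44 ± 0.17 and -1.82 ± 0.33 for wing against gland, and of -3.46 and -2.38 without replicate 2 of the WT gland at -30 h. Without that library SsRbeta also fell from -30 to -6 h in the gland, by 1.01, against a change of -0.45 ± 0.33 with it that was not called. At +6 h TRAM still differed by -2.18 ± 0.17, and SsRbeta by -0.49 ± 0.33 (adjusted p = 0.225).

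Sec63, the J-domain partner of the channel, fell by 1.57 ± 0.17 in the WT gland from -30 to -6 h and had a change of 0.54 ± 0.17 afterwards. An annotated antisense RNA overlaps 60.7% of its exonic bases, and the strand used in counting is not given in the sources used here. Ost48, a subunit of the oligosaccharyltransferase, fell by 1.005 ± 0.29 in the same interval, and lost its call under the median-of-ratios scaling and TMM without glue and Eig71E genes.

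Among the signal peptidase subunits, Spase12 rose in the gland. It stood at 97.04 and 39.9 at -30 h, 452 and 304 at -6 h and 339.6 and 157 at +6 h in WT glands, and rose by 2.55 ± 0.56 at the first step (adjusted p = 0.00176) and by 1.92 without replicate 2 of the WT gland at -30 h (adjusted p = 0.0332). All of its exonic bases lie opposite exons of CG2006, so its reads may belong to either gene. Spase22-23 and Spase25 had changes of 0.58 ± 0.19 and 0.45 ± 0.20 over that interval, under 2-fold. Other annotated genes, on both strands, overlap 30.6% of the exonic bases of Spase22-23. In the wing, Spase25 rose by 1.03 ± 0.20 to +6 h.

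Of the COPII coat, which buds vesicles from the ER, 4 of 6 members rose in the wing from -6 to +6 h and 1 of 6 in the gland, against 10.6% and 13.7% of all genes, and the test of the difference between the tissues called 0 of the 6. Sec16 (FBgn0052654, chromosome X, 12596047 to 12609910), the scaffold of ER exit sites, rose in the gland before puparium formation, with 474 and 423 at -30 h, 992 and 850.4 at -6 h, and 1172 and 929.9 at +6 h scaled RPM and a change of 1.04 ± 0.14 (adjusted p = 3.57e-05). Without replicate 2 of the WT gland at -30 h the change was 0.95 and was not called. In the wing it held 150.5 and 155 at -30 h, 214 and 241 at -6 h, and 504 and 502 at +6 h and rose by 1.14 ± 0.14 at the prepupal step.

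Sar1, the GTPase that starts coat assembly, held 456 and 409 at -30 h, 357 and 489 at -6 h, and 623 and 679 at +6 h in glands, where its last step of 0.64 ± 0.17 was under 2-fold. In wings it held 134 and 148 at -30 h, 132 and 189 at -6 h, and 451 and 444 at +6 h and rose by 1.499 ± 0.17, and the prepupal libraries stood far above the 4 larval ones. Sec23, the inner coat subunit that stimulates Sar1, held 275 and 292 at -30 h, 289 and 213 at -6 h, and 507 and 342 at +6 h in glands and 59.5 and 60.8 at -30 h, 76.3 and 78.7 at -6 h, and 164 and 143 at +6 h in wings. Its changes of 0.75 ± 0.20 and 0.98 ± 0.20 at the last step were both under 2-fold.

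The cargo-binding coat subunits are Sec24AB and Sec24CD. Sec24CD held 473 and 654 at -30 h, 557 and 453 at -6 h, and 1092 and 996 at +6 h in glands and 97.9 and 115.4 at -30 h, 154 and 182 at -6 h, and 372 and 368 at +6 h in wings, and rose by 1.05 ± 0.17 and 1.14 ± 0.17 from -6 to +6 h. Sec24AB went in the gland from 270.3 and 260.3 at -30 h to 511 and 537 at -6 h, a change of 0.98 ± 0.14, just under 2-fold, and its later change was 0.17 ± 0.14. In the wing Sec24AB rose by 1.08 ± 0.14. Sec31, of the outer coat, had changes of 0.37 ± 0.12 in the gland and 0.91 ± 0.12 in the wing at the last step.

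The COPI coat, which returns vesicles from the Golgi, had 0 of 7 members called in any of the 4 WT time comparisons. Of all genes tested, 34.8% and then 30.0% were called at the gland steps, and 5.31% and then 16.7% at the wing steps. At the last step all 7 had positive changes, from 0.40 to 0.94 in the gland and from 0.54 to 1.03 in the wing, where zetaCOP had the 1.03 at an adjusted p of 0.082. In that step 5 of 7 gland changes and 5 of 7 wing changes passed the adjusted p alone, a limit at which the share of all genes was not computed. As an example, deltaCOP, a subunit of the coat's adaptor part, held 249 and 369 at -30 h, 266 and 215 at -6 h, and 353 and 287 at +6 h in glands and 57.8 and 58.6 at -30 h, 62.8 and 69.8 at -6 h, and 118 and 105 at +6 h in wings. All 7 were lower in the wing than in the gland at -30 h and at -6 h, by medians of -2.11 and -1.53, and 6 of 7 at +6 h, while under the scaling to reads outside the glue and Eig71E genes 0 of 7 were called at -6 and +6 h.

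KdelR, the receptor that returns escaped ER proteins, held 454 and 482 at -30 h, 567 and 544 at -6 h, and 758 and 512 at +6 h in glands and 71.5 and 70.00 at -30 h, 99.8 and 80.7 at -6 h, and 152 and 114 at +6 h in wings. Its prepupal changes of 0.17 ± 0.24 and 0.55 ± 0.24 were not called. The wing lay below the gland at all 3 times, with differences of -2.71 ± 0.24 at -30 h and -2.23 ± 0.24 at +6 h.

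Of the p24 family, membrane proteins of early secretory vesicles, CHOp24, loj, p24-1 and bai rose in 1 or both tissues. CHOp24 held 162 and 206 at -30 h, 292 and 209.5 at -6 h, and 656 and 543 at +6 h in glands and 28.6 and 28.7 at -30 h, 35.5 and 47.6 at -6 h, and 104 and 90.6 at +6 h in wings, rising by 1.27 ± 0.21 and 1.22 ± 0.21 from -6 to +6 h. A larger gland rise was that of loj, by 2.47 ± 0.19, from 21.4 and 29.8 to 159 and 132 after 28.6 and 23.5 at -30 h. In wings loj held 12.6 and 11.1 at -30 h, 17.9 and 20.9 at -6 h, and 58.2 and 64.99 at +6 h and rose by 1.62 ± 0.19. All prepupal libraries lay above the larval libraries of the same tissue in both genes.

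Another family member, p24-1, rose by 2.32 ± 0.16 in the gland, from 216 and 264 to 1122 and 1270.5, and had a change of 0.72 ± 0.16 in the wing. The difference between the tissues was -1.598 ± 0.23 for wing minus gland (adjusted p = 9.48e-05), and at +6 h p24-1 differed most of all members between wing and gland, by -3.91 ± 0.16. The family members bai and eca had changes of 0.99 ± 0.33 and 1.28 ± 0.50 in the gland, neither called, and of 1.03 ± 0.33 and 1.19 ± 0.50 in the wing, where bai was called.

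Both lectin and multispan cargo receptors rose in both tissues. The fly ergic53, a mannose lectin that carries glycoproteins to the Golgi, held 479 and 484 at -30 h, 332 and 327 at -6 h, and 881 and 909.7 at +6 h in glands and 85.5 and 92.8 at -30 h, 132 and 168 at -6 h, and 470.2 and 455 at +6 h in wings, rising by 1.44 ± 0.12 and 1.63 ± 0.12. Surf4, a receptor for soluble cargo in mammals, held 406 and 426 at -30 h, 249.6 and 298 at -6 h, and 680.4 and 919 at +6 h in glands and 61.97 and 72.7 at -30 h, 60.8 and 83.6 at -6 h, and 185 and 244 at +6 h in wings, rising by 1.53 ± 0.19 and 1.56 ± 0.19. In both genes the +6 h libraries were the highest of their tissue.

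Syx5, the Golgi SNARE that lets vesicles fuse, rose early in the gland. WT glands held 101 and 85.4 at -30 h, 257 and 234 at -6 h and 454 and 442 at +6 h. The first step was 1.39 ± 0.18 (adjusted p = 2.06e-05) and the second 0.87 ± 0.18, under 2-fold. Wings held 35.8 and 36.7 at -30 h, 40.5 and 38.4 at -6 h, and 66.5 and 63.2 at +6 h, with no step called.

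In EcRi tissue the members were compared with WT of the same organ and time, and the effect of time was compared between genotypes. EcR itself stood at 279.6 and 302 in WT and 303 and 282 in EcRi glands at -30 h, and at 1326 and 1273 and 248 and 192 at -6 h, where it differed by -2.57 ± 0.14. Reads from the hairpin would count with EcR, so the level does not measure the target mRNA alone. EcRi glands took 1.84% to 5.08% of reads from glue genes, against 65.1% and 72.6% in WT glands at -6 h, and so the scaling gap between genotypes was widest there.

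In wings, 0 members differed by the test between EcRi and WT: 0 were called at -30 h, against 2.21% of all genes, and 0 at -6 h, against 1.78%. At an unadjusted p under 0.05, 2 were higher and 1 lower at -30 h, and 0 higher and 2 lower at -6 h. The authors' deposited tables held 0 members past both limits at each time, and past the adjusted p alone 2 higher at -30 h and 1 lower at -6 h. The median standard error of a member's change was 0.19. EcRi wings held 563 and 622 of Hsc70-3 at -30 h and 621 and 790.2 at -6 h, against 463 and 575 and 692 and 1019 in WT wings, with overlap at both times. Gland markers at -6 h summed to 135.6 and 113.9 scaled RPM in EcRi wings, against 9844.8 and 7052.6 in WT wings. Their part in the comparisons that use these wings was not tested.

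Over time, EcRi wings had 0 members called from -30 to -6 h, against 3.07% of all genes, with 8 higher and 0 lower at an unadjusted p under 0.05 and 41 of 45 positive. The median change of a member was 0.21, against 0.02 for all genes, and the share of all genes at the unadjusted p was not computed. The authors' deposited table held 0 past both limits and 3 higher past the adjusted p alone. A test of the difference from the WT wing interval called 0 members, against 0.866% of all genes, with 0 higher and 2 lower at an unadjusted p under 0.05.

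In glands at -30 h, 2 members were higher and 0 lower in EcRi, against 13.6% of all genes, and the authors' deposited table held 1 higher. Ero1L, whose WT group holds the listed 0, had a change of 0.75 without that library and was not called. Sec24AB stood at 501 and 607 in EcRi and 270.3 and 260.3 in WT glands, a difference of 1.05 ± 0.14 (adjusted p = 0.000175), and 0.89, not called, without replicate 2 of the EcRi gland at -30 h. Under the scaling to reads outside the glue and Eig71E genes 0 members were higher and 12 lower. Of all genes tested, 409 were higher and 2148 lower under that scaling. Fat body markers, which mark the tissue that lies against the gland, summed to 15899.2 and 23215.3 scaled RPM in EcRi glands at -30 h, against 4060.2 and 7698.7 in WT glands, with all 8 read in both libraries of each group. Their part in these values was not tested.

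At -6 h, 1 member was higher and 5 were lower in the EcRi gland, against 27.0% of all genes, and the median member differed by -0.39 against 0.16 for all genes. The authors' deposited table held 1 higher and 6 lower. Under the scaling to reads outside the glue and Eig71E genes the counts were 2 higher and 2 lower and the median turned to 0.08, against 0.43 for all genes. Of all genes tested, 2461 were higher and 643 lower under that scaling. Relative to all genes the median lay between -0.66 and -0.35 over the 4 scalings. Trachea markers summed to 737.9 and 757.2 scaled RPM in EcRi glands at -6 h, against 86.15 and 86.65 in WT, with all 5 read in both libraries of each group and pio the most abundant. Blood cell markers summed to 414.8 and 558.4, against 48.73 and 84.01, most of it from Col4a1 and with eater at 0 in WT. Their part in these values was not tested. The higher gene was prtp, at 110.2 and 96.3 in EcRi and 28.4 and 27.2 in WT glands, a difference of 1.85 ± 0.19 (adjusted p = 4.14e-06). Both EcRi libraries lay above both WT libraries, and the call held under all 29 other settings tried, many of which left out a library outside this comparison.

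Lower in the EcRi gland were Syx5, at 104 and 69.7 against 257 and 234 in WT, and Sec16, at 476 and 403 against 992 and 850.4. Their differences were -1.52 ± 0.18 (adjusted p = 1.3e-05) and -1.07 ± 0.14 (adjusted p = 3.77e-05). Spase12 stood at 122 and 39.5 against 452 and 304, bai at 119 and 112 against 224 and 388, and Spase25 at 154 and 105 against 280.5 and 258. Differences were -2.396 ± 0.56 for Spase12, -1.35 ± 0.33 for bai and -1.08 ± 0.20 for Spase25. Without replicate 2 of the EcRi gland at -6 h, 3 members were called, and the values of Sec16, Spase12 and Spase25, -0.95, -1.59 and -0.81, no longer passed.

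From -30 to -6 h the EcRi gland had 0 members higher and 4 lower, against 4.41% of all genes, and 43 of 45 changes were negative, with a median of -0.54 against 0.01 for all genes. The authors' deposited table held 0 higher and 2 lower. Hsc70-3 went from 5206 and 4165 to 2383 and 2039 and fell by 1.08 ± 0.23 (adjusted p = 0.00981). Gp93 went from 934 and 916 to 469 and 346, a fall of 1.198 ± 0.17, and CaBP1 from 521 and 464 to 207 and 150.1, a fall of 1.47 ± 0.24. Sec61alpha went from 825 and 659.8 to 433 and 311, a fall of 1.01 ± 0.17. All 4 genes had both -6 h libraries below both -30 h libraries. Fewer calls remained without single libraries, 1 without replicate 2 of the EcRi gland at -6 h and 2 without replicate 1 of the EcRi gland at -30 h, while 7 came without replicate 1 at -6 h, and the scaling to reads outside the glue and Eig71E genes called 0. That scaling called 843 of all genes tested higher and 67 lower. Fat body markers summed to 5786 and 9597 in EcRi glands at -6 h, lower than at -30 h, and their part was not tested.

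Tested directly, the gland change from -30 to -6 h differed between genotypes for 12 of 45 members, 3 with a higher and 9 with a lower value in EcRi, against 26.6% of all genes. Calr (1.08 ± 0.24), prtp (1.16 ± 0.27) and Ire1 (1.35 ± 0.26) fell in WT, and in EcRi had changes of -0.31, -0.62 and 0.04, none called. Syx5 (-1.83 ± 0.25), Sec16 (-1.35 ± 0.20) and Sec24AB (-1.24 ± 0.20) had positive changes in WT and negative ones in EcRi. In the other members called, Spase12, Spase22-23, Spase25, bai, CHOp24 and Ero1L, the differences ran from -4.95 for Ero1L to -1.10 for CHOp24. With replicate 2 of the WT gland at -30 h left out, Ero1L differed by -2.22, and Calr (0.79), prtp (0.98) and Spase12 (-2.37) were no longer called. The other 8 members kept their call there, Ire1 with 1.39, Syx5 with -1.71, Sec16 with -1.27, Sec24AB with -1.22, bai with -2.01, and Spase22-23, Spase25 and CHOp24 with values from -1.29 to -1.11.

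The direction of this contrast depended on scaling. Under the scaling to reads outside the glue and Eig71E genes, 14 members had a higher and 0 a lower value in EcRi. Of all genes tested, 3496 had a higher and 513 a lower value under that scaling. The members' median relative to all genes moved there from -0.31 to 0.235. Calr, prtp and Ire1 were called with the same sign there, although Calr with 0.82 and prtp with 0.90 were not called under the median-of-ratios scaling, and Sec24AB, CHOp24, Spase22-23 and Spase25 changed sign. Without replicate 2 of the EcRi gland at -6 h, 7 members were called, and without replicate 2 of the WT gland at -30 h, 9 were.

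Other values that use replicate 2 of the WT gland at -30 h were also computed without it. From -30 to -6 h the WT gland falls were 1.596 for prtp, 1.35 for Ire1, 1.35 for Sec61alpha, 1.29 for Sec63 and 1.16 for Ost48, and Syx5 rose by 1.27, all still called. The changes of Xbp1, Sec24AB, Spase22-23 and Spase25 were 0.72, 0.95, 0.54 and 0.57, all still under 2-fold, while bai rose by 1.09. Against the gland at -30 h, the wing held less Ire1 and KdelR by differences of -2.06 and -2.66, and the COPI median was -1.88 with all 7 called. Sec24AB was higher in EcRi than in WT glands at -30 h by 1.03.

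**Figure D5:**
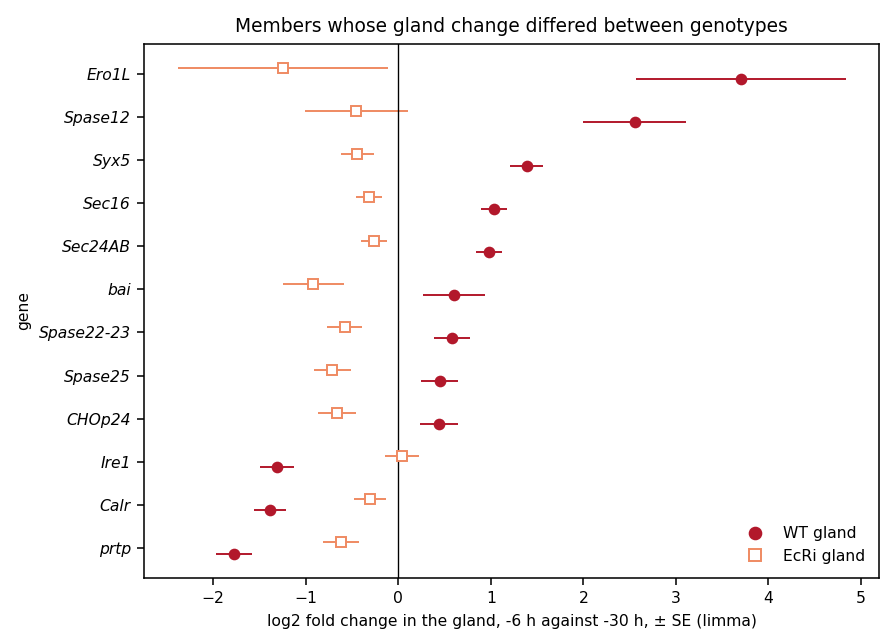
Log2 fold change from -30 to -6 h ± standard error (limma) in the gland for the 12 members whose change differed between genotypes, WT as filled circles and EcRi as open squares. Calr, Ire1 and prtp lie left of 0 in WT, with -1.38, -1.31 and -1.77, and the other 9 lie right of it in WT and left of it in EcRi.

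The effect of EcR-RNAi at -6 h differed between wing and gland for 4 members, against 21.7% of all genes. For wing minus gland the difference was -2.21 ± 0.27 for prtp, 2.28 ± 0.79 for Spase12, 1.403 ± 0.25 for Syx5 and 1.002 ± 0.27 for Spase22-23. EcRi wings at -6 h held 47.6 and 59.5 of prtp and 40.5 and 32.7 of Syx5, against 63.4 and 74.6 and 40.5 and 38.4 in WT wings. Under the scaling to reads outside the glue and Eig71E genes 0 members were higher and 4 lower, with prtp still called. Of all genes tested, 553 were higher and 2113 lower under that scaling.

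A wider list of 62 further genes of the pathway, listed with earlier results of these data known, gave 52 that were found and tested. From -6 to +6 h, 20 rose and 1 fell in the WT gland, where 13.7% of all genes rose and 16.3% fell, and 12 rose and 0 fell in the WT wing, where 10.6% rose and 6.08% fell. Manf, a small ER stress-responsive protein, rose by 1.72 ± 0.17 in the gland and 1.35 ± 0.17 in the wing. SrpRbeta, a subunit of the signal recognition particle receptor, rose by 1.73 ± 0.17 and 1.56 ± 0.17, and Sec22, an ER to Golgi SNARE, by 1.38 ± 0.18 and 1.32 ± 0.18. Tapdelta, another translocon-associated subunit, rose by 2.18 ± 0.27 and 1.598 ± 0.27.

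Between -30 and -6 h the wider list moved both ways in the WT gland, 7 higher and 5 lower of the 52, against 34.8% of all genes called. The small GTPases Rab1, Rab2 and Rab6 rose there by 1.53 ± 0.16, 1.44 ± 0.32 and 1.64 ± 0.20, and Edem2, of ER-associated degradation, by 1.64 ± 0.15. Without replicate 2 of the WT gland at -30 h these changes were 1.76, 1.096, 1.905 and 1.69, and 7 of the list were higher and 6 lower. Against the gland, 0 of the 52 were higher and 42 lower in the wing at -30 h (0 and 40 without that library), 2 and 32 at -6 h, and 4 and 32 at +6 h, where 30.9%, 44.5% and 47.4% of all genes were called. In EcRi glands at -6 h 3 were higher and 6 lower than in WT, against 27.0% of all genes, among them P58IPK, an ER cochaperone, with -1.96 ± 0.18, Herp with -1.58 ± 0.24 and Edem2 with -1.41 ± 0.15.

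Over the 10 group means, the genes whose log2 level followed Hsc70-3 most closely among 4203 genes with at least 20 scaled RPM on average were Sec61beta (Pearson's r = 0.988) and Manf (0.988). The points are group means from shared libraries, and the values are a description of likeness in this series.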

How the data were processed

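Total RNA libraries (Tecan Universal RNA-Seq kit) were made from wings and salivary glands, per the labels. Reads were handled with STAR 2.7.3a, SAMtools 1.9, DESeq2 and the dm6 build, per the submitters' processing notes, with no version for DESeq2 and strand use not given in the sources used here. The matrix the authors deposited as counts holds RPKM over each gene's span with introns, and whole reads were recovered from its steps (62097 of 62117 low values, or 99.97%, were within 0.1 read of a whole number). Of 17606 genes, 4 had no values and 82 were left out for want of a length, with at most 0.275% of a library's RPKM. The authors' deposited DESeq2 tables give a base mean signal, log2 fold changes and p-values, which were used only where named.

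RPM values from these reads were scaled by TMM (written by hand) with a pseudocount of 1 scaled RPM, and 10159 genes passed a filter of at least 0.56 scaled RPM in 2 libraries and 15 reads in all. limma 3.58.1 in R 4.3.3, with trend and robust settings, was fitted to the 20 libraries as 10 groups. The fit was also run on simulated data in which all libraries shared a common profile. These held no glue shift, tissue difference or poor library, so they cannot show how the fit handles those. No count test was run on recovered reads. Members, lists and tests were chosen with earlier results of these data known. Values in every library are given for 1 to 3 members of each role and for members called in at least 2 WT time comparisons. Alternatives were other scalings, filters, pseudocounts, fits and left-out libraries. Intervals of counting were not used, and depths of 14949900 to 22626725 reads limit the low genes. Replicate numbers were not used as a block, as the labels name no shared batch.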

Additional observations from a re-analysis of the deposited data

Results flagged for a closer look

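The results below are members whose change or effect differed between tissues or genotypes by a direct test (limma, Benjamini-Hochberg adjusted p under 0.05 and at least 2-fold). They are given as log2 differences, and no cause was tested. The shares of members called were near or below those of all genes tested, so the counts do not set the members apart.

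The gland change from -30 to -6 h differed between EcRi and WT for 12 of 45 members (26.7%), against 26.6% of all genes tested. In EcRi minus WT, the change was higher for Calr by 1.0779, for prtp by 1.1556 and for Ire1 by 1.3527. It was lower for Ero1L (-4.9488), Spase12 (-3.0061), Syx5 (-1.831), bai (-1.5216), Sec16 (-1.3534), Sec24AB (-1.244), Spase25 (-1.1604), Spase22-23 (-1.1571) and CHOp24 (-1.1036). The value for Ero1L rests on a listed 0 in replicate 2 of the WT gland at -30 h and was -2.22 without that library, where Calr (0.79), prtp (0.98) and Spase12 (-2.37) were not called.

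The WT change from -6 to +6 h differed between wing and gland for 6 of 45 members (13.3%), against 27.0% of all genes tested. In wing minus gland it was higher for Xbp1 (1.1892) and Ire1 (1.0445), and lower for p24-1 (-1.5984), CaBP1 (-1.5574), Atf6 (-1.4143) and Gp93 (-1.0732). Under the median-of-ratios scaling and TMM without glue and Eig71E genes neither Xbp1 nor Ire1 was called, and 0 members were higher and 6 lower.

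The difference between EcRi and WT at -6 h was itself different in wing and gland for 4 of 45 members (8.89%), against 21.7% of all genes tested. In wing minus gland it was lower for prtp (-2.2147) and higher for Spase12 (2.2764), Syx5 (1.4028) and Spase22-23 (1.0023).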

How the results depend on the processing

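Of 189 called changes of single members, 143 kept their direction and their call in all 28 planned settings, and 0 reversed in any of them. The setting with no fold minimum uses the main fit and could not lose or reverse a call. Most left-out libraries lie outside a given comparison of groups, so the number of settings overstates how far a call was tried. Under the scaling to reads outside the glue and Eig71E genes, chosen after the data were seen, 93 of the 189 kept their call, 85 lost it and 11 reversed. Reversed were, for wing against gland at -6 h, Cnx99A (0.0637) and ergic53 (0.1088), and at +6 h Xbp1 (0.08), Sec16 (0.2743), Sec24AB (0.0198), Sec31 (0.1247) and loj (0.093). In the gland change from -30 to -6 h, EcRi minus WT, Spase22-23 (0.0857), Spase25 (0.0872), Sec24AB (0.0071) and CHOp24 (0.1445) reversed. The number of members called moved under this scaling to 24 for the WT gland from -30 to -6 h, 10 for the WT gland and 9 for the WT wing from -6 to +6 h, 16 and 14 for wing against gland at -6 and +6 h, 12 for EcRi against WT glands at -30 h and 0 for the EcRi gland over time, and the cause was not tested. The number of all genes called moved as well, and these numbers stand beside the members' counts above. With no fold minimum the counts were 33 and 34 for the WT gland and wing from -6 to +6 h, 22 and 8 for the same tissues from -30 to -6 h, 12 for the prepupal difference between tissues, 2 for the EcRi wing over time, 7 and 19 for EcRi against WT glands at -30 and -6 h, 14 for the EcRi gland over time and 8 for the effect of EcRi in wing minus gland. The shares of all genes without a fold minimum were not computed. A fit of only the compared libraries, which has fewer libraries to estimate the spread, called 7 in the WT gland from -30 to -6 h, 0 for EcRi against WT glands at -30 h, 1 for the EcRi gland over time and 5 for the gland difference between genotypes. For EcRi against WT glands at -30 h, no filter on low values and a pseudocount of 0.25 each gave 1. For the effect of EcRi in wing minus gland, median-of-ratios scaling and TMM without glue and Eig71E genes each gave 7, and for these the cause was not tested. Leaving out single libraries gave 0 to 4 members for EcRi against WT glands at -30 h, 3 to 8 at -6 h, 1 to 7 for the EcRi gland over time, 7 to 17 for the gland difference between genotypes and 3 to 7 for the effect of EcRi in wing minus gland. The low ends came without replicate 2 of the EcRi gland at -6 h, or at -30 h for the comparison at that time. For the effect of EcRi in wing minus gland, the low end also came without any of several single wing libraries, some of them outside that contrast.

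A fit with the replicate number as a block kept all 189 calls, and gave 19 called members in the WT gland and 22 in the WT wing from -6 to +6 h. The deviations of same-numbered libraries correlated over 0.1 in 30 of 45 pairs of groups, with a median of 0.153 and a range from -0.04 to 0.426, and 4 members (ERp60, SsRbeta, Spase12 and zetaCOP) lay on the same side in all 10 groups, as did 2.62% of all genes tested. This is a hint of a shared replicate effect from the data, but not every pair passed 0.1 and the labels name no batch, so the numbers were not taken as pairing the libraries. With 2 libraries a group, small changes may be missed, and low-read values are limited by counting error.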

Other observations

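CrebA, a bZIP factor known in flies to activate secretory pathway genes, rose in the WT wing by 1.58 ± 0.23 from -30 to -6 h and by 1.703 ± 0.23 from -6 to +6 h, but had changes of 1.00 ± 0.23 and 0.63 ± 0.23 in the WT gland, neither called, although without replicate 2 of the WT gland at -30 h the first was 1.24 and called. It stood at 91.2 and 116 at -30 h, 275 and 349 at -6 h, and 1086 and 943 at +6 h scaled RPM in WT wings and at 694 and 974 at -30 h, 1624 and 1661 at -6 h, and 2508 and 2563 at +6 h in WT glands, where the wing lay below the gland at all 3 times. The prepupal change was higher in the wing by 1.08 ± 0.33 (adjusted p = 0.023), and in the gland the change from -30 to -6 h differed by -1.02 ± 0.33 between EcRi and WT (adjusted p = 0.032), and by -1.26 without that library.

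The fly ATF4 gene, crc, which acts downstream of PEK, was higher in EcRi than in WT glands by 1.04 ± 0.17 at -30 h (1.07 without replicate 2 of the WT gland) and 1.14 ± 0.17 at -6 h. Its levels were 310 and 368 and 458 and 329.6 in EcRi, against 161 and 168 and 163 and 189.8 in WT glands. Over the WT times no change of crc reached 2-fold in either tissue.

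Among the wider list, Sil1, a nucleotide exchange factor for the ER Hsp70, rose by 2.65 ± 0.35 in the WT gland from -6 to +6 h, and Der-1, of ER-associated degradation, by 2.46 ± 0.24. In the WT wing Fkbp14, an ER prolyl isomerase, rose by 1.93 ± 0.22 over the same hours.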
